A study of Mus musculus with 28 samples.

Results

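The genes of glycolysis and of the transcriptional response to low oxygen were followed in leukocytes sorted from mouse tumours. A list of 36 genes was set by name: enzymes of glycolysis, glucose and lactate carriers and other genes of pyruvate and acid handling, the hypoxia-inducible factors with their hydroxylases, and genes that low oxygen induces. Of these, 33 had a probe set naming them alone and were measured, among 17097 genes measured in all. Gpi1, Eno1 and Pgam1 were not analysed here, Pgam1 because its probe set also names a pseudogene. The measured genes comprise 14 glycolytic enzymes, 5 genes of transport and pyruvate or acid handling, 4 genes of the factor system and 10 hypoxia response genes.

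The study profiled total RNA of CD45+ cells on Affymetrix arrays, 28 in all, from tumours of B16.F10, a mouse melanoma line, and of MC38, a mouse colon carcinoma line. Every host mouse carried Foxp3Cre-YFP, a Cre recombinase with a yellow fluorescent protein expressed from Foxp3, the gene that defines regulatory T cells. Control hosts carried that allele alone, and the other hosts were Nrp1L/LFoxp3Cre-YFP, with both Nrp1 alleles flanked by Cre sites, so that neuropilin-1 is lost in cells that express Foxp3. They are called Nrp1-deleted here, although the deletion is confined by design to Foxp3-expressing cells while all CD45+ cells were measured. Both genotypes were sampled at each of 3 times, an early day, day 12 and day 18 for B16 and days 6, 12 and 18 for MC38. The early B16 arrays are placed at day 8 by their titles and at day 6 by their source names. There are 3 arrays per genotype for B16 at day 18 and for MC38 at day 12, and 2 in each of the remaining 8 groups. The age of the mice, and whether replicates came from separate mice, are not given in the sources used here, so p-values measure the spread between arrays, which can be technical.

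Glycolysis splits glucose into pyruvate, and its enzymes act in a fixed order from hexokinase to pyruvate kinase, with lactate dehydrogenase turning pyruvate into lactate. When oxygen is low, the alpha subunits encoded by Hif1a and Epas1 escape hydroxylation by the prolyl hydroxylases encoded by Egln1 and Egln3, are no longer degraded, and switch on glycolytic enzymes, glucose carriers and genes for vessel growth and mitochondrial turnover. Tumour macrophages and activated T cells are both known to rely on glycolysis, and tumour cells commonly do so too.

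The deposited values are log2 intensities, so a difference of 1 is a change by a factor of 2, which compares each probe set only with itself. By the shape of their value distributions the arrays fell into 3 sets, B16 day 18 with MC38 day 12, MC38 days 6 and 18, and B16 early with day 12, and each genotype comparison lies within 1 set. The CD45 gene Ptprc lay between 11.51 and 12.90 on every array, and the mean of 6 leukocyte markers lay between 11.72 and 12.40. Means of 9 epithelial markers (at most 4.15) and 9 endothelial markers (at most 3.95) were low on all arrays, near the 3.64 that was the median of all deposited values. Some genes of these lists were brighter, with highest arrays of 9.91 for Cdh1, 6.36 for Epcam, 6.77 for Pecam1 and 6.09 for Kdr. The mean of 12 melanocytic markers was 3.33 to 3.62 in MC38, whose line is not melanocytic, but 4.74 to 9.47 in B16. Mitf, on that list, was bright in MC38 all the same, with group means of 7.73 to 8.29, beside 5.70 to 9.27 in B16. In such bulk samples, fewer cells of a type and less RNA per cell cannot be told apart.

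In B16 tumours at day 12, genes at most measured steps of glycolysis were lower in Nrp1-deleted than in control hosts. A gene was called where its adjusted p, from limma with Benjamini-Hochberg adjustment over all genes, was under 0.05. Of the 33 genes, 20 were called lower and 0 higher, where 17% of all genes were called, 9.17% lower and 7.8% higher. The median difference of the 33 was -0.54, beside 0.04 over all genes. By role, the genes called lower were 10 of 14 glycolytic enzymes, 3 of 5 in transport and pyruvate or acid handling, 2 of 4 in the factor system and 5 of 10 hypoxia response genes.

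Hk2, the inducible hexokinase at the entry to glycolysis, measured 9.62 and 9.65 in the control hosts and 7.56 and 7.90 in the deleted hosts. Both deleted arrays lay below both controls, 3.75-fold lower by group means (log2 difference -1.91 ± 0.18 SE, limma adjusted p 4.88e-08). Slc2a1, a glucose carrier of the plasma membrane, measured 10.62 and 10.61 against 9.21 and 9.30, again without overlap. Its difference was -1.36 ± 0.19 (limma adjusted p 1.05e-05). Bnip3, which marks mitochondria for removal, measured 10.48 and 10.38 in controls and 8.47 and 8.63 in deleted hosts. That is a 3.67-fold lower level (-1.88 ± 0.16, limma adjusted p 9.24e-09), and the groups were far apart relative to their spread. Egln3, a prolyl hydroxylase that is itself induced by low oxygen, measured 8.03 and 7.99 against 5.60 and 5.53, a difference of -2.44 ± 0.32. Ndrg1, a stress-induced gene, measured 8.95 and 8.82 against 6.38 and 6.71, a difference of -2.34 ± 0.32. Epas1, encoding the second factor subunit, measured 6.94 and 6.62 against 3.97 and 4.54, a difference of -2.53 ± 0.44. The deleted arrays lay below 4.62, the median of all gene values, so no fold is given and the size of this difference rests on dim signal. For Egln3, Ndrg1 and Epas1 too the control and deleted arrays did not overlap.

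Differences were smaller for the abundant enzymes. Tpi1, triose phosphate isomerase, differed by -0.72 ± 0.08, Pkm, pyruvate kinase, by -0.66 ± 0.10 and Pgk1, phosphoglycerate kinase, by -0.54 ± 0.08. The aldolase gene Aldoc differed by -1.41 ± 0.16 and Pfkl, a phosphofructokinase subunit, by -0.84 ± 0.17. Gapdh (-0.31 ± 0.08), Aldoa (-0.32 ± 0.09), Ldha (-0.22 ± 0.06) and Pfkfb3 (-0.81 ± 0.27), which makes the activator of phosphofructokinase, completed the called enzymes. The remaining called genes were Car9, a surface carbonic anhydrase (-2.08 ± 0.26), the lactate exporter Slc16a3 (-1.10 ± 0.22), the vascular growth factor Vegfa (-1.33 ± 0.28), the vasodilator peptide Adm (-1.41 ± 0.32, dim in deleted hosts at 3.49 and 3.67) and Ankrd37 (-1.03 ± 0.22). All deleted arrays lay below all control arrays for 26 of the 33 genes, where 24.1% of all genes did so. Calls of 15 of the 20 genes held when each array in turn was left out. Pfkl lost its call without deleted replicate 1 (limma adjusted p 0.0576), Aldoa without control replicate 1 (0.244) or deleted replicate 1 (0.107), Gapdh without control replicate 1 (0.127) or deleted replicate 2 (0.0592), and Pfkfb3 and Ldha without any of the 4 arrays (0.116 to 0.161 for Pfkfb3 and 0.0502 to 0.132 for Ldha).

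**Figure D1:**
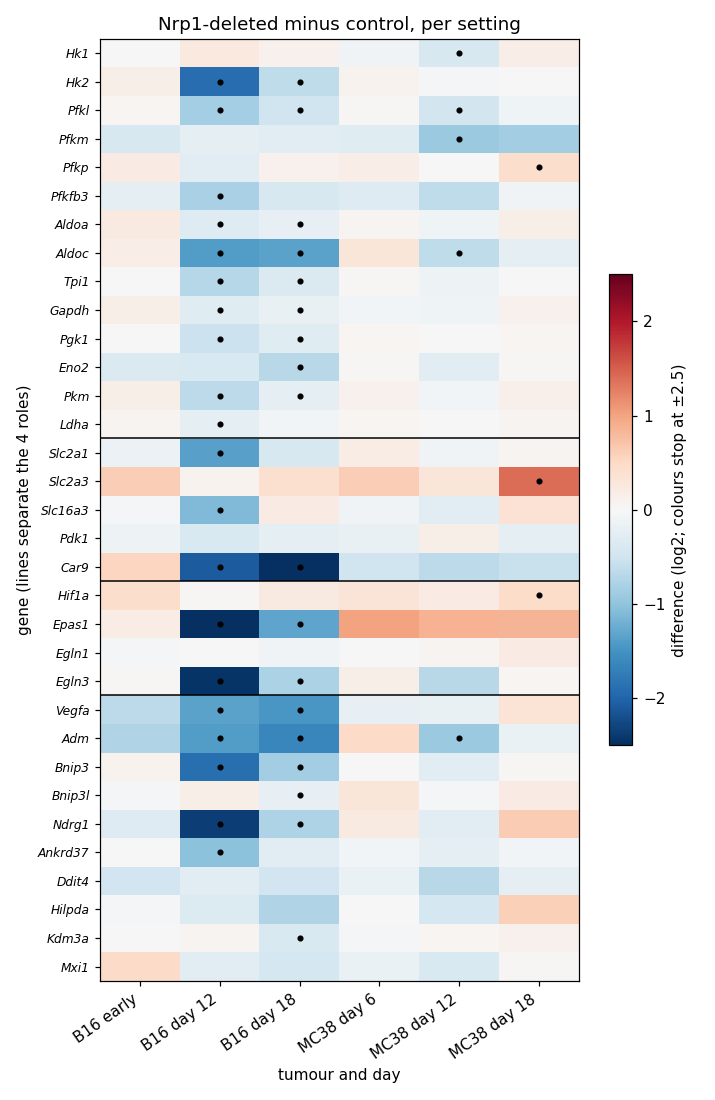
Heat map of the log2 difference, Nrp1-deleted minus control, for the 33 genes (lines, grouped by role) in each of the 6 tumour and day settings (columns), with colours stopping at ±2.5. The B16 day 12 and day 18 columns hold the largest negative values, led by Car9 at day 18 (-3.31). Most values in the MC38 day 12 column are negative too, but smaller, down to -0.93 for Pfkm.

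The upstream sequences of 6 of these genes are shown because they moved together at B16 day 12, and because they differ in how many copies they hold of the core letters of the hypoxia response element. The element was searched as ACGTG or GCGTG on either strand of the 250 bases before the RefSeq transcript start (mouse build GRCm38.p6), where a CACGTG holds a match on each strand and both are counted. Matches are in capitals, each sequence reads 5′ to 3′ on the gene's strand, and letters found in a window are a description of that window. Hk2 lies on the minus strand at chr6:82774455-82774704, Tpi1 on the minus strand at chr6:124814159-124814408, Slc2a1 on the plus strand at chr4:119108495-119108744, Car9 on the plus strand at chr4:43506776-43507025, Egln3 on the minus strand at chr12:54203875-54204124 and Bnip3 on the minus strand at chr7:138909507-138909756.
Hk2: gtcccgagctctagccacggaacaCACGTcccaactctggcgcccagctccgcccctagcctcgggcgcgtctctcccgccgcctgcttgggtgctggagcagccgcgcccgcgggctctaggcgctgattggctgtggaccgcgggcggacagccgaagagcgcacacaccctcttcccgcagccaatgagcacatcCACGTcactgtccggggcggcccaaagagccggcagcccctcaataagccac
Tpi1: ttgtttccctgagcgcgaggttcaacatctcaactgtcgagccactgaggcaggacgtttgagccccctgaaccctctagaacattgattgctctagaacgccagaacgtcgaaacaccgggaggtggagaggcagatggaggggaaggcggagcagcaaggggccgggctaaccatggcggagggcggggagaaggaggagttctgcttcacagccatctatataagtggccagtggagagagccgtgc
Slc2a1: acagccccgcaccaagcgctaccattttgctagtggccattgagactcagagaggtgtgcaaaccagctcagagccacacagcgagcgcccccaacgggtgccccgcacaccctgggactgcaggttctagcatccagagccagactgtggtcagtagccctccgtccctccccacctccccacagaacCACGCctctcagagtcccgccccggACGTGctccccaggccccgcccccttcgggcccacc
Car9: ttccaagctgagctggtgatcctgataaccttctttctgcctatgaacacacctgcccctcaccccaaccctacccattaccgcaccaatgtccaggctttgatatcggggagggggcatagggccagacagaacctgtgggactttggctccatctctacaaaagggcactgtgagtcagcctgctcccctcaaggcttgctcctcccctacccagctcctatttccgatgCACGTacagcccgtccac
Egln3: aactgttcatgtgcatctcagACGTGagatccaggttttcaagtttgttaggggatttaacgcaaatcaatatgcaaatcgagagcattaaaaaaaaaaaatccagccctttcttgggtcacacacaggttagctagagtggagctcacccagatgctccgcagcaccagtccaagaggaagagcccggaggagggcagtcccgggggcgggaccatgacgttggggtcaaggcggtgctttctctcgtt
Bnip3: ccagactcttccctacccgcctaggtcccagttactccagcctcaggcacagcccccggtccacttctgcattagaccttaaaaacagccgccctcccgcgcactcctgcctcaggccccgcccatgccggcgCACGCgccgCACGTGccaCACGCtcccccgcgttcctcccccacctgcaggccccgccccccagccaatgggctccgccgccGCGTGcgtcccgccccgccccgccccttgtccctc
The Hk2 window held 2 matches, beginning 226 and 52 bases before the start, and the Slc2a1 window 2, at 61 and 36. Car9 held 1, at 18 bases, and Egln3 held 1, at 229. Bnip3 held 5, at 117, 108, 107, 99 and 35 bases, of which those at 108 and 107 are the opposite strands of 1 CACGTG. The Tpi1 window held 0 although Tpi1 was called lower with the others.

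A RefSeq promoter entry existed for 29 of the 33 genes, with none used for Epas1, Ndrg1, Bnip3l and Slc2a3. Either core occurred in an upstream window of 27 of the 29 (93.1%), and in 41.5% of all 27025 genes with an entry. ACGTG alone occurred in 19 (65.5%, against 18.5%) and GCGTG in 18 (62.1%, against 30.9%). The motif did not separate genes by their behaviour at B16 day 12: it was present for 17 of 18 genes called lower and for 10 of 11 not called. Genes with several listed starts have several windows, and over windows the shares were 34 of 46 for these genes (73.9%) and 38.6% for all.

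At the early day in B16, no gene of the 33 was called between genotypes by limma, with 5 at an unadjusted p under 0.05 and 0.445% of all genes called, 0.292% lower and 0.152% higher. Hk2 measured 8.80 and 8.97 in controls and 9.06 and 8.99 in deleted hosts. Bnip3 measured 8.91 and 9.08 against 9.04 and 9.14, and Egln3 6.98 and 6.95 against 6.77 and 7.23. For Bnip3 and Egln3 the early arrays of the genotypes overlapped, and for Hk2 the lower deleted array lay just above the higher control. Hif1a gave the smallest p among the 33, with 10.81 and 10.96 against 11.19 and 11.45 (0.44 ± 0.13, limma adjusted p 0.165). The 33 genes averaged 8.67 to 8.69 in early controls and 8.65 to 8.71 in deleted hosts. Macrophage markers at this day averaged 7.79 to 7.94 in controls and 6.46 to 7.80 in deleted hosts, with deleted replicate 2 the low array. By limma 0 of 11 macrophage markers were called (6 at an unadjusted p under 0.05) and 0 of 12 melanocytic markers (1 at an unadjusted p under 0.05). T cell markers averaged 9.36 to 9.51 in early controls and 9.70 to 10.11 in deleted hosts, with 0 of 11 called by limma (4 at an unadjusted p under 0.05).

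The B16 early and day 12 arrays belong to 1 set, so each host genotype was also compared over time. In control hosts 7 of the 33 genes rose by day 12 and 0 fell, where 16.1% of all genes were called, 9.14% rising and 6.92% falling. Bnip3 rose by 1.44 ± 0.16 (limma adjusted p 9.9e-07), Car9 by 1.91 ± 0.26, Ankrd37 by 1.29 ± 0.22, Pfkl by 0.75 ± 0.17, Hk2 by 0.75 ± 0.18, Aldoc by 0.56 ± 0.16 and Egln3 by 1.05 ± 0.32. Car9 was dim in early controls (4.25 and 4.41), so the size of its rise rests on dim signal. Without 1 of the arrays, Hk2 (early control replicate 1 left out, limma adjusted p 0.0737), Aldoc (0.0567 to 0.139 over 3 arrays) and Egln3 (0.112 to 0.13 over all 4 arrays) were no longer called.

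In Nrp1-deleted hosts 15 genes fell by day 12 and 0 rose, where 16.2% of all genes were called, 7.09% falling and 9.14% rising. Epas1 fell by 3.73 ± 0.44 on the log2 scale (limma adjusted p 4.45e-06), from 8.08 and 7.88 to 3.97 and 4.54, while in controls it differed by -1.02 ± 0.44 (adjusted p 0.129). Hk2 fell by 1.30 ± 0.18, Aldoc by 1.02 ± 0.16, Tpi1 by 0.50 ± 0.08, Pkm by 0.56 ± 0.10 and Pgk1 by 0.46 ± 0.08. Mxi1, which encodes an antagonist of MYC, fell by 1.05 ± 0.19, and it was not called between genotypes at either day. Ldha, Egln3, Slc2a1, Ndrg1, Aldoa, Bnip3, Gapdh and Vegfa were the other genes that fell, by 0.25 (Gapdh) to 1.44 (Egln3). Of the genes that rose in controls, Hk2, Aldoc, Egln3 and Bnip3 fell in deleted hosts, whereas Car9 (-0.71 ± 0.26, limma adjusted p 0.0684), Pfkl (-0.14) and Ankrd37 (0.24) were not called there. Mxi1 (-0.32) and Vegfa (-0.21) also had negative differences in controls, which did not pass the test. Calls of Aldoa, Gapdh, Egln3, Vegfa, Bnip3 and Ndrg1 were lost without at least 1 array, with limma adjusted p-values of 0.0526 for Egln3 without early deleted replicate 2, 0.0699 for Ndrg1 and 0.167 for Bnip3 without day 12 deleted replicate 1, and 0.111 for Aldoa, 0.218 for Gapdh and 0.143 for Vegfa without early deleted replicate 2.

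The difference between these courses was tested directly, as the change in deleted hosts minus the change in controls. It was negative and called for 16 of the 33 genes and positive for 0, where 6.29% of all genes were called, 4.41% negative and 1.88% positive. The values were -1.97 ± 0.22 for Bnip3, -2.04 ± 0.26 for Hk2, -2.61 ± 0.37 for Car9, -2.48 ± 0.46 for Egln3 and -1.22 ± 0.27 for Slc2a1. The Car9 value rests in part on dim signal, in early controls and in day 12 deleted hosts. With each array in turn left out, 10 of the 16 calls held. The lost calls were Pfkl, Slc16a3 and Ankrd37, each without most of the 8 arrays (limma adjusted p up to 0.193, 0.227 and 0.193), Gapdh (up to 0.0821) and Aldoa (up to 0.0728), both led by day 12 control replicate 1, and Epas1 without day 12 deleted replicate 1 (0.0535). This contrast uses the same arrays as the comparisons at each day, so it is no separate evidence of them.

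**Figure D2:**
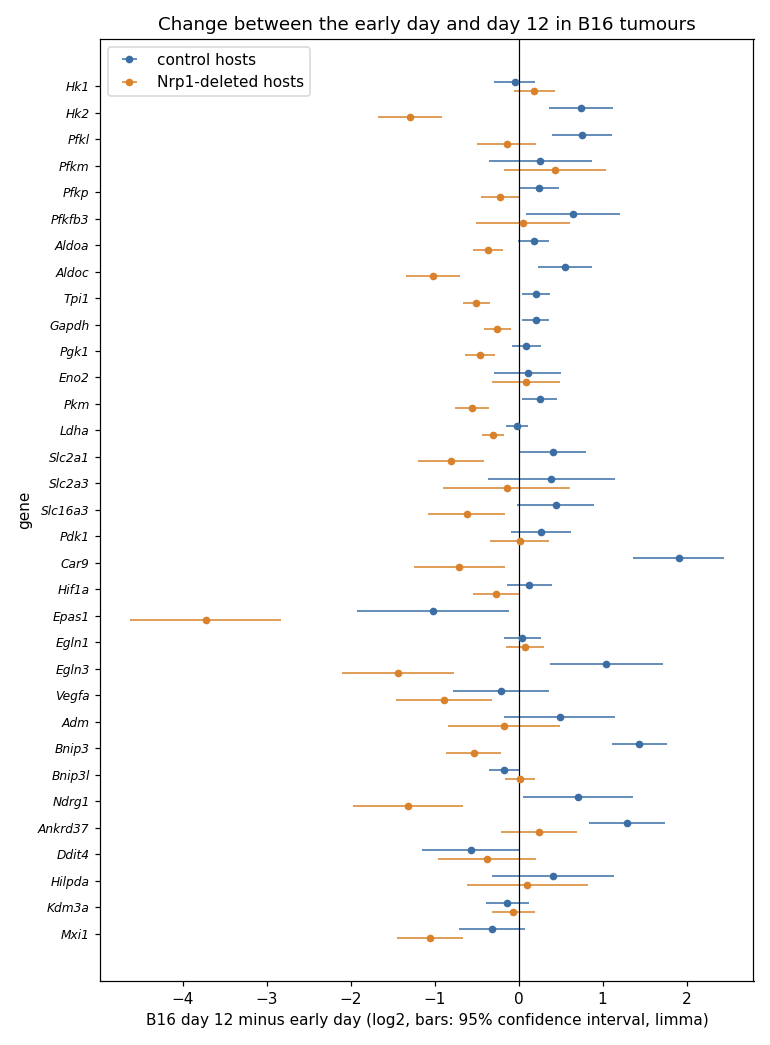
Change from the early day to day 12 in B16 tumours (log2, horizontal axis) for each of the 33 genes, with 95% confidence intervals from limma, in control hosts and in Nrp1-deleted hosts. Bnip3, Car9, Hk2 and Egln3 lie to the right of 0 in controls and to the left in deleted hosts.

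Cell type markers moved together with these genes, and their part in the result was not tested. The mean of 11 macrophage markers was 9.83 to 9.85 in B16 day 12 controls and 6.12 to 6.68 in deleted hosts, with 11 of 11 called lower (median -3.42). Over time in control hosts 11 of 11 macrophage markers rose (median 1.99), and in deleted hosts 4 of 11 fell (median -0.55). The melanocytic mean was 6.51 to 6.67 in day 12 controls and 4.74 to 5.42 in deleted hosts, with 9 of 12 called lower. The mean of 11 T cell markers was 9.17 to 9.23 in controls and 10.16 to 10.34 in deleted hosts, with 3 of 11 called higher. The mean of 8 neutrophil markers was 5.20 to 5.48 in day 12 controls and 4.46 to 4.99 in deleted hosts. By group means these markers went both ways, S100a9 at 8.57 and 5.97 and Ltf at 4.05 and 5.26. The 33 genes themselves averaged 8.99 to 9.02 and 8.15 to 8.24.

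At B16 day 18, measured in another array set with 3 arrays per genotype, 18 of the 33 genes were called lower and 0 higher, where 18.8% of all genes were called, 11.3% lower and 7.54% higher. The median difference was -0.37, beside 0.00 over all genes. Car9 measured 8.72, 9.33 and 8.67 in control hosts and 5.80, 5.91 and 5.09 in deleted hosts. The groups were separated by more than 2 log2 units, and Car9 was 9.91-fold lower (-3.31 ± 0.21, limma adjusted p 2.89e-10). Aldoc measured 8.73, 9.0 and 8.96 against 7.78, 7.27 and 7.61 (-1.34 ± 0.13). Vegfa measured 7.99, 8.77 and 8.83 against 6.77, 6.67 and 7.77 (-1.46 ± 0.22), and Adm 5.57, 6.08 and 6.27 against 4.22, 3.89 and 4.93 (-1.63 ± 0.26). In each of these genes every deleted array lay below every control array. Adm was dim on deleted replicates 1 and 2, so the size of its difference rests in part on dim signal.

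Deleted replicate 3 at day 18 stood nearer the controls than its fellow replicates for several genes. Hk2 measured 9.31, 9.74 and 9.25 in controls and 8.72, 8.47 and 9.23 in deleted hosts. Egln3 measured 7.17, 7.76 and 8.16 against 6.71, 6.18 and 7.79, and Epas1 6.77, 6.98 and 7.60 against 5.23, 5.23 and 6.97. The genotypes overlapped for Egln3 and Epas1 through that array. The other genes called lower were Bnip3 (-0.87 ± 0.13), Tpi1 (-0.37 ± 0.06), Pgk1 (-0.31 ± 0.07), the enolase gene Eno2 (-0.69 ± 0.16), Kdm3a, a histone demethylase (-0.37 ± 0.10), Pfkl (-0.50 ± 0.14), Pkm (-0.24 ± 0.08), Ndrg1 (-0.78 ± 0.26), Gapdh (-0.19 ± 0.06), Bnip3l, a relative of Bnip3 (-0.21 ± 0.07), and Aldoa (-0.21 ± 0.07). Eno2 lay between 2.65 and 3.97 on all arrays. Its day 18 group means of 3.53 and 2.84 were below the 3.64 median of all values, so its difference is one of dim signal. All deleted arrays were below all control arrays for 11 of the 33, where 15.8% of all genes were.

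Of the 18 calls at day 18, 9 held when each array in turn was left out. The others, Pfkl, Aldoa, Gapdh, Pkm, Epas1, Egln3, Bnip3l, Ndrg1 and Kdm3a, each lost their call without control replicate 2 or, for Epas1, without control replicate 3 (-1.07, limma adjusted p 0.0732) or deleted replicate 1 or 2. Without deleted replicate 2 the values were -0.44 for Egln3 (adjusted p 0.294) and -0.44 for Ndrg1 (0.291), and without control replicate 2 they were -0.23 for Kdm3a (0.106) and -0.39 for Pfkl (0.0847). Beside these genes the melanocytic mean was 8.77 to 9.47 in day 18 controls and 5.25 to 6.18 in deleted hosts (12 of 12 called lower, median -3.17), and the macrophage mean was 9.0 to 9.84 against 7.72 to 8.23 (10 of 11 called lower). T cell markers averaged 8.69 to 8.84 in day 18 controls and 9.24 to 9.52 in deleted hosts (1 of 11 called higher), and leukocyte markers 11.72 to 11.76 against 11.97 to 11.98 (5 of 6 called higher). Fibroblast markers averaged 4.45 to 4.77 against 3.63 to 3.84 (8 of 15 called lower, with the collagen gene Col3a1 at group means of 7.05 and 3.92), and erythroid markers 4.54 to 4.98 against 3.85 to 4.25 (1 of 4 called lower). Thy1, on the fibroblast list, went the other way, with group means of 10.49 and 11.05. None of these list means overlapped between genotypes. Their part in the result was not tested.

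**Figure D3:**
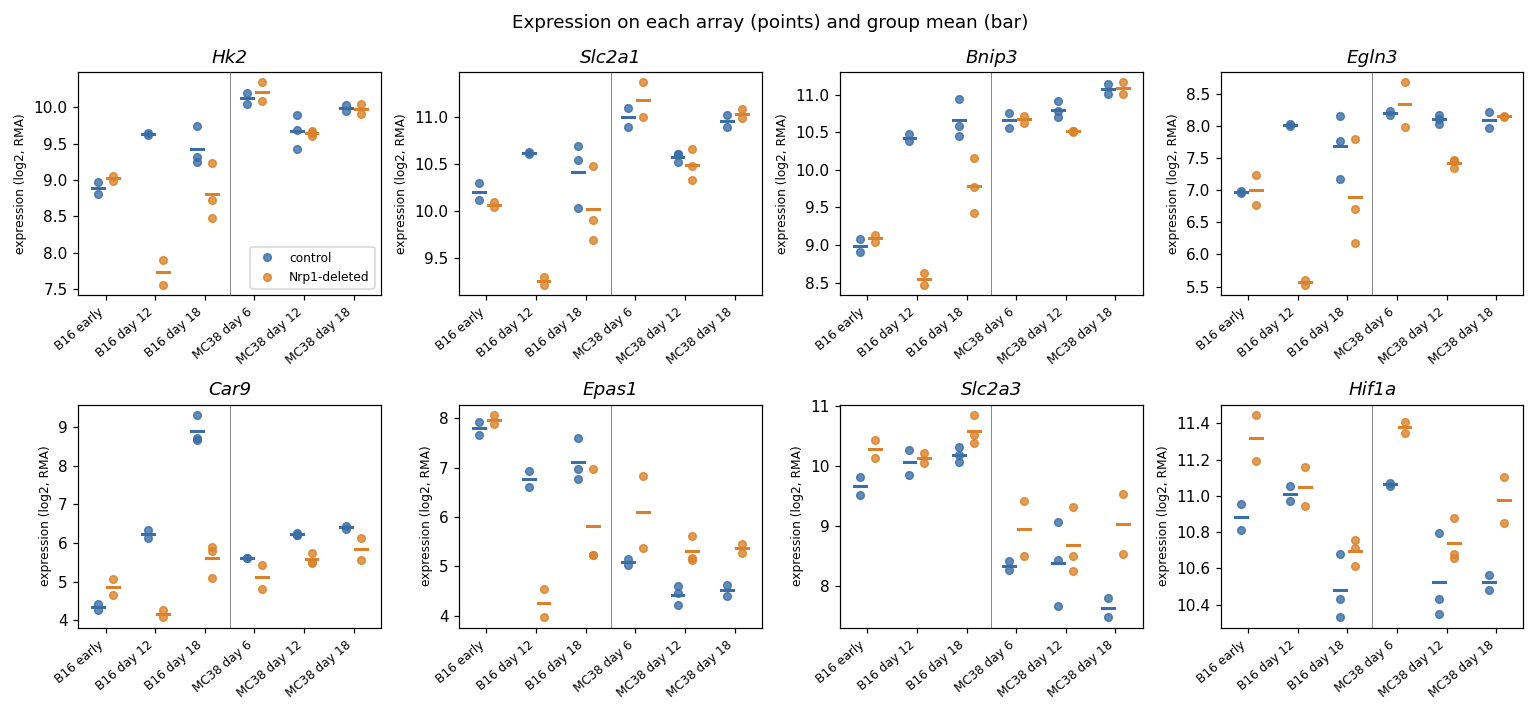
Expression (log2, vertical axis) of 8 of the genes on each array (points, with a bar at the group mean) in the 6 settings of tumour and day, control beside Nrp1-deleted. Hk2, Slc2a1, Bnip3 and Egln3 separate by genotype at B16 day 12 and lie close together at the early day, while Slc2a3 and Hif1a lie higher in deleted hosts in most settings.

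Averaged over the 3 B16 days, 17 of the 33 genes were called lower and 1 higher, where 22.6% of all genes were called, 12.3% lower and 10.3% higher. Car9 differed by -1.62 ± 0.14, Epas1 by -1.22 ± 0.24, Adm by -1.26 ± 0.17, Vegfa and Ndrg1 by -1.15, Egln3 by -1.07 ± 0.18, Bnip3 by -0.88 ± 0.09 and Aldoc by -0.86 ± 0.08. Hif1a was the gene called higher, by 0.23 ± 0.07 (limma adjusted p 0.019). That call and the one of Pfkfb3 (-0.47 ± 0.15) did not hold when some single arrays were left out, for example early deleted replicate 2, with limma adjusted p-values of 0.0948 and 0.0735. Hk1, the constitutive hexokinase (0.12, 95% interval -0.01 to 0.25), Egln1, a widely expressed prolyl hydroxylase (-0.03, -0.16 to 0.09), and Ldha (-0.07) did not pass the test in the B16 average. Gapdh lay at the threshold (-0.12, limma adjusted p 0.0505).

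In MC38 tumours the same genes gave a mixed picture. Their share called in the MC38 mean, in either direction, lay near that of all genes. Averaged over the 3 MC38 days, 5 were called higher and 2 lower, where 19.3% of all genes were called, 6.97% higher and 12.3% lower, and the median difference was -0.01, beside -0.06 over all genes. The higher genes were Hif1a (0.33 ± 0.07, limma adjusted p 0.00175), Slc2a3, a high-affinity glucose carrier (0.77 ± 0.20, 0.00697), Epas1 (0.91 ± 0.24, 0.00786), Pfkp, a phosphofructokinase subunit (0.20 ± 0.06, 0.0194), and Bnip3l (0.16 ± 0.05, 0.0207). The lower genes were Pfkm, the muscle-type phosphofructokinase subunit (-0.70 ± 0.16, 0.00289), and Car9 (-0.57 ± 0.14, 0.00585). Pfkp and Bnip3l lost their calls without some single arrays, at an adjusted p of 0.0761 for Pfkp without day 6 deleted replicate 2 and 0.0842 for Bnip3l without day 6 control replicate 2.

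At MC38 day 6 no gene of the 33 was called by limma, 3 had an unadjusted p under 0.05, and 2.97% of all genes were called, 1.99% lower and 0.983% higher. Car9 measured 5.60 and 5.61 in controls and 5.42 and 4.80 in deleted hosts. At day 12, 5 genes were called lower and 0 higher, where 8.59% of all genes were called, 4.87% lower and 3.71% higher. They were Aldoc (-0.64 ± 0.13), Hk1 (-0.41 ± 0.10), Pfkm (-0.93 ± 0.24), Adm (-0.92 ± 0.26) and Pfkl (-0.46 ± 0.14). Adm was dim in the day 12 deleted hosts (3.96, 3.84 and 3.41) and on control replicate 2 (4.05). Aldoc measured 9.07, 8.98 and 8.93 in day 12 controls and 8.37, 8.28 and 8.41 in deleted hosts, without overlap. All deleted arrays lay below all controls for 16 of the 33 genes at day 12 and above them for 1. Together these were 51.5%, beside 25.4% of all genes. The counts were 1 below and 8 above at day 6 (27.3%, beside 42.1% of all genes). At day 18 they were 5 below and 14 above (57.6%, beside 52.3%). Calls of Pfkm, Adm and Pfkl were lost without single arrays, for example without deleted replicate 1 for Pfkm (-0.67, limma adjusted p 0.118), control replicate 3 for Adm (-0.70, 0.173) and deleted replicate 3 for Pfkl (-0.41, 0.144). In a fit on the day 12 arrays alone, of these 5 genes Aldoc was still called and Hk1 (0.0598), Pfkl (0.0554), Pfkm (0.0692) and Adm (0.107) were not.

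At MC38 day 18, 3 genes were called higher and 0 lower, where 5.36% of all genes were called, 3.12% higher and 2.24% lower. Slc2a3 measured 7.48 and 7.80 in control hosts and 8.54 and 9.54 in deleted hosts, and the arrays did not overlap (1.40 ± 0.36, limma adjusted p 0.025). Hif1a measured 10.56 and 10.48 against 10.85 and 11.11 (0.46 ± 0.13, 0.0408), and Pfkp 9.90 and 9.92 against 10.28 and 10.41 (0.44 ± 0.11, 0.0218). None of the 3 calls held when each array was left out. Without deleted replicate 2 the values were 0.90 for Slc2a3 (0.342), 0.33 for Hif1a (0.36) and 0.37 for Pfkp (0.194). Without control replicate 1, Slc2a3 differed by 1.24 (0.191), and the deleted arrays were far apart from each other for this gene.

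Between MC38 days 6 and 18, which lie in 1 array set, control hosts showed 2 genes that rose and 3 that fell, where 8.94% of all genes were called, 4.4% rising and 4.54% falling. Adm rose by 1.84 ± 0.32 and Aldoc by 0.72 ± 0.16, and Hif1a fell by 0.54 ± 0.13, Pfkp by 0.45 ± 0.11 and Hilpda, which encodes a lipid droplet protein, by 1.21 ± 0.35. Adm was dim in day 6 controls (4.06 and 3.67), so the size of its rise rests on dim signal. Only Adm kept its call with each array left out, and Aldoc (limma adjusted p 0.102), Hilpda (0.18), Hif1a (0.0677) and Pfkp (0.123) lost theirs without day 6 control replicate 2. In deleted hosts no gene of the 33 was called by limma, 9 had an unadjusted p under 0.05 and 1.94% of all genes were called, 1.19% rising and 0.749% falling. The difference between the 2 courses was called for 0 of the 33, with 1 at an unadjusted p under 0.05 and 0.0819% of all genes called, 0.0643% positive and 0.0175% negative.

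Macrophage markers averaged 10.87 to 11.80 in MC38 tumours of both genotypes, and 0 of 11 were called between genotypes in the MC38 mean (median -0.24, 1 at an unadjusted p under 0.05, limma). Fibroblast markers averaged 5.48 to 5.87 in MC38 controls and 4.36 to 5.06 in deleted hosts, with 7 of 15 called lower, and 10 of 11 cell cycle genes were called lower. T cell markers moved the other way, with 9 of 11 called higher in the MC38 mean (median 1.12). Their mean was 7.03 to 7.33 in controls and 7.72 to 8.51 in deleted hosts at day 6, 5.80 to 7.51 and 7.18 to 8.21 at day 12, and 6.37 to 6.71 and 7.71 to 8.28 at day 18, overlapping at day 12. At day 18, when Slc2a3, Hif1a and Pfkp were called higher, 9 of 11 T cell markers were too. Thy1, on the fibroblast list, was higher in deleted hosts, as T cell markers were (group means 8.55 and 9.57 at day 18). Col1a2, Lum, Pdgfra, Pdgfrb and Fap of that list were dim, at most 3.81 on every array. The part of all these markers in the MC38 values was not tested.

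The difference between the genotype effects in B16 and MC38 was tested in the same model. It was negative and called for 13 of the 33 genes and positive for 0, where 14% of all genes were called, 7.22% negative and 6.75% positive. Epas1 gave the widest difference (-2.13 ± 0.34, limma adjusted p 0.000111), since it was lower in deleted hosts of B16 and higher in those of MC38. In MC38 day 12 controls Epas1 measured 4.47, 4.61 and 4.22, against 5.17, 5.13 and 5.63 in deleted hosts, without overlap. Those controls were dim, and the second Epas1 probe set differed by 0.01 in the MC38 mean. With probe sets averaged, Epas1 was no longer called higher in MC38 (0.46, limma adjusted p 0.149). Ndrg1 (-1.35 ± 0.24), Vegfa (-1.13 ± 0.21), Adm (-1.06 ± 0.25), Egln3 (-0.90 ± 0.25), Hk2 (-0.81 ± 0.14), Bnip3 (-0.80 ± 0.12), Slc2a1 (-0.69 ± 0.15) and Aldoc (-0.66 ± 0.12) also had more negative effects in B16. So did Tpi1 (-0.34 ± 0.06), Pgk1 (-0.31 ± 0.07) and Pkm (-0.30 ± 0.08). The 13 calls held with each array left out. Car9, however, differed by -1.05 ± 0.20 with all arrays and by -0.20 (adjusted p 0.576) without the B16 day 18 arrays, and Egln3 by -0.59 (0.0689) when its probe sets were averaged.

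**Figure D4:**
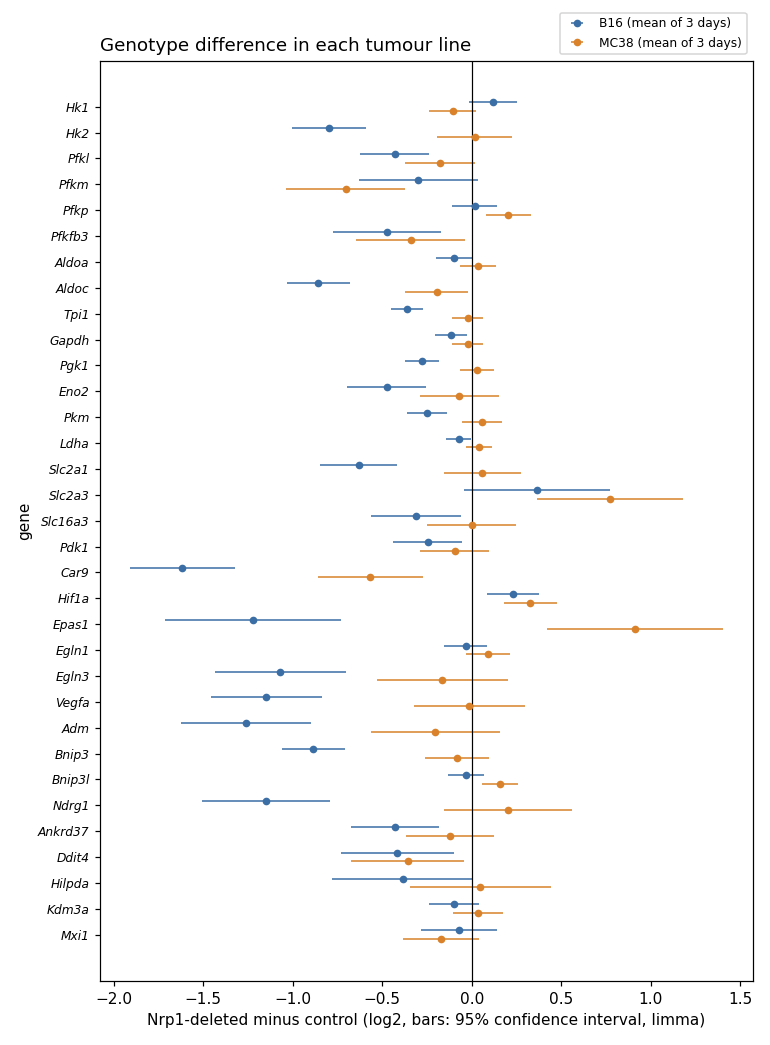
Genotype difference (log2, Nrp1-deleted minus control) averaged over 3 days in B16 and in MC38 for each of the 33 genes, with 95% confidence intervals from limma. The intervals of Hk2, Bnip3, Vegfa and Ndrg1 lie below 0 in B16 and span 0 in MC38, while those of Epas1 lie on opposite sides of 0.

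Averaged over all 6 settings, 17 genes were called lower and 2 higher, where 28.8% of all genes were called, 17.9% lower and 11% higher. The median difference was -0.17, beside -0.03 over all genes. Car9 (-1.09 ± 0.10), Adm (-0.73 ± 0.12), Egln3 (-0.62 ± 0.13) and Vegfa (-0.58 ± 0.11) were lower, and Slc2a3 (0.57 ± 0.14) and Hif1a (0.28 ± 0.05) were higher. The deleted group mean lay below the control mean in 6 of 6 settings for Pfkm, Pfkfb3 and Ddit4, an inhibitor of mTOR signalling (-0.39 ± 0.11), and above it in 6 of 6 for Slc2a3 and Hif1a. Among the genes not called, Egln1 differed by 0.03 (95% interval -0.06 to 0.11), Hk1 by 0.01 (-0.09 to 0.10), Ldha by -0.02 (-0.07 to 0.04) and Kdm3a by -0.03 (-0.13 to 0.07). Hilpda, Slc16a3, Mxi1 and Pdk1, whose product inhibits pyruvate dehydrogenase, had differences of -0.17, -0.16, -0.12 and -0.17 that did not pass either.

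**Figure D5:**
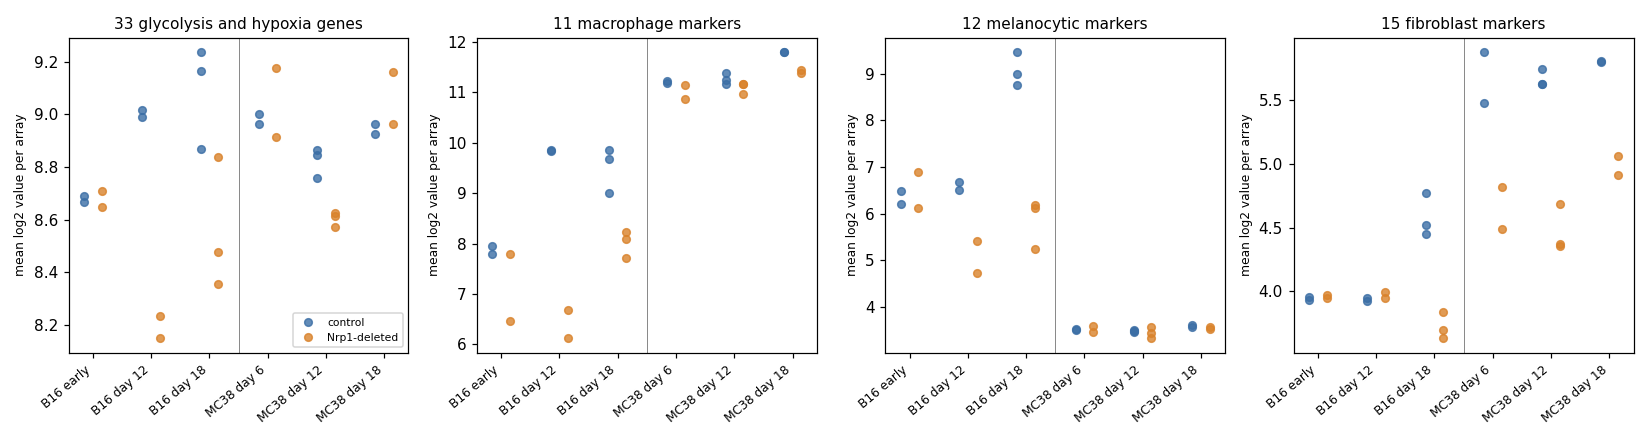
Mean log2 value per array (vertical axes) of the 33 genes and of the macrophage, melanocytic and fibroblast marker lists, by tumour, day and genotype (points, 1 per array). At B16 day 12 the 33 genes, the macrophage markers and the melanocytic markers all lie lower in the deleted hosts, and at the early day the 33 genes average 8.67 to 8.69 in controls and 8.65 to 8.71 in deleted hosts.

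Other genes of the same pathways were counted from 4 lists. At B16 day 12, 8 of 19 other glycolysis genes were called lower and 1 higher, among them Pfkfb4 (-2.26 ± 0.18), the myeloid hexokinase Hk3 (-1.91 ± 0.28), the monocarboxylate carrier Slc16a7 (-1.91 ± 0.29) and Eno3 (-0.91 ± 0.17). Of 12 pentose phosphate and glycogen genes, 6 were called lower and 2 higher, with the glycogen phosphorylase Pygl at -2.91 ± 0.26 and transaldolase, Taldo1, at -0.53 ± 0.09. Of 36 other hypoxia-induced genes, 14 were called lower and 1 higher, with Plin2, a lipid droplet coat protein, at -2.66 ± 0.20, the heme oxygenase Hmox1 at -3.13 ± 0.37 and Ero1a at -1.70 ± 0.20. Of 10 other genes of the factor pathway, Cited1 was called lower (-1.61 ± 0.30) and Cited2 higher (0.51 ± 0.13). These shares called in either direction were 47.4%, 66.7%, 41.7% and 20% for the 4 lists, beside the 17% of all genes, which the factor pathway list lay near. In the MC38 mean, 3 of 19 other glycolysis genes were called lower and 1 higher, and of the 36 other hypoxia-induced genes 6 were lower and 4 higher, the latter including Flt1 (1.20 ± 0.17) and Rora (1.20 ± 0.19). Called in either direction were 21.1% and 27.8% of these lists, beside 19.3% of all genes, of which 12.3% were lower and 6.97% higher, so the glycolysis share in MC38 lay near that of all genes.

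Genes with several probe sets were read from the brightest, and 18 of the 33 had more than 1. Averaging the probe sets of a gene ended several calls, given here with the averaged difference and its limma adjusted p. Pfkl was no longer called in any comparison of genotypes that had called it, in the mean of 6 settings (-0.09, 0.367), the B16 mean (-0.16, 0.230), B16 day 12 (-0.39, 0.122), B16 day 18 (-0.25, 0.222) and MC38 day 12 (-0.16, 0.518), nor in the difference of B16 courses (-0.55, 0.209). Hif1a lost its calls in the B16 mean (0.21, 0.128), the MC38 mean (0.22, 0.102), MC38 day 18 (0.35, 0.303) and MC38 controls over time (-0.42, 0.165). Epas1 lost those in the MC38 mean (0.46, 0.149) and in the difference of B16 courses (-1.77, 0.0675). Egln3 lost those at B16 day 18 (-0.54, 0.103), between the lines (-0.59, 0.0689) and in B16 controls over time (0.71, 0.0891). Pfkfb3 was not called in the B16 mean (-0.29, 0.149) or at B16 day 12 (-0.44, 0.298), and Hk1 was not called at MC38 day 12 (-0.14, 0.628). Slc2a3 at MC38 day 18 (0.74, 0.141), Aldoc in B16 controls over time (0.41, 0.0926) and Vegfa in B16 deleted hosts over time (-0.57, 0.241) were the others. The second Epas1 probe set differed by 0.01 in the MC38 mean. Whether the probe sets read different transcripts was not tested.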

How the data were processed

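Per the submitters' processing notes, the deposited log2 values come from RMA in Partek 6.6, applied by the authors to arrays of biotin-labelled RNA of freshly sorted cells amplified in repeated cycles, per the labels' protocols. The background and summary settings are not given in the sources used here, and scanner files were not used here. Of 45141 probe sets (104 of them controls), 28898 name 1 gene, 551 name several and 15692, controls included, are unnamed here. For each of the 17097 genes the brightest probe set by its average across the 28 arrays stood for the gene, and 7180 genes had several to choose from. The 3 array sets were read from the quantiles of the values, whose root mean square difference was at most 0.0909 within sets and at least 0.118 between them, so levels were not tested across sets. No arrays were identical (highest correlation 0.9946), and arrays of a group correlated at 0.984 or more.

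limma 3.58.1 in R 4.3.3 fitted a mean for each of the 12 groups to all arrays, with an intensity trend and no filter. Benjamini-Hochberg adjustment ran over all genes at 0.05, tests were 2-sided, and errors are standard errors unless said otherwise. The number of arrays limits the precision. The fit was also run on simulated arrays with independent normal noise and the same shifts in all settings, so that run cannot address noise shared between arrays. The members and lists were chosen with earlier results of these data known, so counts over them are descriptions. All members measured are named, single arrays are given for those with the smallest adjusted p or widest difference, and of each other list up to 4 genes with the smallest adjusted p. Promoter windows are from RefSeq, build GRCm38.p6, matched by symbol. Alternatives covered a filter on dim genes, centring each array at its 75th percentile, cyclic loess, the mean over probe sets, no variance trend, a fit on the compared groups, a replicate block, and leaving out each array or the B16 day 18 arrays.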

Additional observations from a re-analysis of the deposited data

Results flagged for a closer look

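The genotype effect differed between the tumour lines for 13 genes by limma's test of the difference itself. In each case the effect averaged over the days was more negative in B16 than in MC38, and values are the log2 difference of effects with the adjusted p. They were Hk2 (-0.81, 0.000329), Aldoc (-0.66, 0.000464), Tpi1 (-0.34, 0.000393), Pgk1 (-0.31, 0.00208), Pkm (-0.30, 0.00826), Slc2a1 (-0.69, 0.00215) and Car9 (-1.05, 0.000811). The others were Epas1 (-2.13, 0.000111), Egln3 (-0.90, 0.016), Vegfa (-1.13, 0.000652), Adm (-1.06, 0.00471), Bnip3 (-0.80, 7.1e-05) and Ndrg1 (-1.35, 0.00047).

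The genotype effect in B16 also differed between day 12 and the early day for 16 genes, by limma's test of the change in deleted hosts minus the change in controls. All of these values were negative. They were Hk2 (-2.04, 3.51e-05), Pfkl (-0.89, 0.026), Aldoa (-0.55, 0.00764), Aldoc (-1.58, 8.62e-05), Tpi1 (-0.71, 0.000212), Gapdh (-0.46, 0.0103), Pgk1 (-0.55, 0.00527), Pkm (-0.81, 0.00061) and Slc2a1 (-1.22, 0.0057). The others were Slc16a3 (-1.06, 0.044), Car9 (-2.61, 8.75e-05), Epas1 (-2.71, 0.00706), Egln3 (-2.48, 0.00113), Bnip3 (-1.97, 8.85e-06), Ndrg1 (-2.03, 0.00586) and Ankrd37 (-1.05, 0.0417). Pfkl, Aldoa, Gapdh, Slc16a3, Epas1 and Ankrd37 each lost their call when single arrays were left out, at adjusted p-values of up to 0.193, 0.0728, 0.0821, 0.227, 0.0535 and 0.193. With probe sets averaged, Pfkl (-0.55, 0.209) and Epas1 (-1.77, 0.0675) also lost theirs, as did Egln3 between the lines (-0.59, 0.0689). Car9 differed between the lines by -0.20 (0.576) without the B16 day 18 arrays. Values between the B16 days for Car9, Slc16a3 and Epas1 rest in part on dim signal. The tests share B16 early and day 12 arrays, so they are not independent of each other.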

How the results depend on the processing

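In no alternative did a called gene change direction, scalings included. Numbers of the 33 genes called by limma moved by more than 1.5 times as follows. With only the compared groups fitted, the count went from 18 to 8 at B16 day 18 (Hk2 at an adjusted p of 0.0587 and Eno2 at 0.0771 among those lost), from 5 to 8 at MC38 day 12 (4 of the 5 were lost, so most of the 8 are other genes), from 3 to 6 at MC38 day 18, from 5 to 17 over time in MC38 controls and from 7 to 20 over time in B16 controls. Cyclic loess gave 3 at MC38 day 12, 12 over time in B16 controls and 1 at MC38 day 6, where 75th percentile centring and the filter on dim genes also gave 1 in place of 0. Averaging probe sets, or no variance trend, gave 1 at MC38 day 18, and averaging probe sets or the dim filter gave 1 in place of 0 over time in MC38 deleted hosts. Why the counts moved was not tested, beyond the smaller number of arrays in the fits on compared groups.

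With single arrays left out, counts ran from 10 to 20 at B16 day 18, 0 to 1 at MC38 day 6, 3 to 4 at MC38 day 12, 0 to 1 at MC38 day 18, 1 to 3 over time in MC38 controls, 0 to 3 in MC38 deleted hosts and 4 to 6 in B16 controls. Same-numbered arrays of the genotypes did not deviate together in general (correlations -0.28 to 0.20), so the numbers are not taken as pairs. With the replicate block the count was 1 in place of 3 at MC38 day 18, and it stayed within 1.5 times elsewhere.

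Over all genes, cyclic loess changed the split of higher and lower calls from 1191 and 2109 to 1552 and 1414 in the MC38 mean, from 1154 and 1234 to 597 and 1577 for the difference between lines, from 1333 and 1567 to 928 and 1810 at B16 day 12, from 168 and 340 to 260 and 214 at MC38 day 6 (223 and 251 with 75th percentile centring), from 635 and 833 to 749 and 600 at MC38 day 12, from 534 and 383 to 646 and 278 at MC38 day 18, and from 321 and 754 to 202 and 901 for the B16 difference over time. With only the compared groups fitted, 15 genes in place of 76 were called at B16 early, 2141 in place of 3217 at B16 day 18, 104 in place of 508 at MC38 day 6, 723 in place of 1468 at MC38 day 12, 1862 in place of 917 at MC38 day 18, 2692 in place of 1528 and 121 in place of 332 over time in MC38 controls and deleted hosts, and 1711 in place of 1075 for the B16 difference over time. With the replicate block 229 were called at MC38 day 6 and 517 at MC38 day 18, and without the B16 day 18 arrays the B16 mean called 2285 in place of 3868. At B16 early, averaging probe sets gave 42, no variance trend gave 33, and single arrays left out gave 0 (deleted replicate 2) to 294 (deleted replicate 1). The MC38 difference over time called 14 genes, and 0 to 122 under the alternatives.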
